A study of Mus musculus with 4 samples.

Results

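The MHC class I presentation genes are the 10 genes H2-K1, H2-D1, B2m, Tap1, Tap2, Tapbp, Psmb8, Psmb9, Psmb10 and Nlrc5. They were chosen by name, from what they do in presenting peptides to CD8 T cells, and all 10 were found once each among the 33696 features of the count matrices. Their unique molecular identifiers (UMIs, each 1 captured RNA molecule) were counted in single cells of mouse KPC tumours, in every cell class that marker genes could name and in 4 treatment groups. KPC is a mouse pancreatic cancer line. It was grown under the skin of male C57BL/6NHsd mice aged 8 to 10 weeks, and live CD45+ cells were sorted from tumours harvested on day 14. The untreated group received no agonist. The STING agonist group received ADU-S100, 2 µg per tumour, injected once into the tumour on day 0. The LTβR agonist group received the antibody 4H8 against the lymphotoxin-β receptor, 100 µg into the peritoneum, 4 times until day 10, and the combination group received both. In each group 10 tumours were pooled into 1 library, so no group had a replicate, no test between groups was possible and no p-value is given. The treatment and the library cannot be told apart.

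Class I molecules show short peptides from a cell's own proteins at its surface, where CD8 T cells read them. The heavy chains H2-K1 (ENSMUSG00000061232) and H2-D1 (ENSMUSG00000073411) hold the peptide, and B2m (ENSMUSG00000060802), β2-microglobulin, is the light chain both need to reach the surface. Tap1 (ENSMUSG00000037321) and Tap2 (ENSMUSG00000024339) form the transporter that carries peptides into the endoplasmic reticulum. Tapbp (ENSMUSG00000024308) encodes tapasin, which bridges that transporter and the empty heavy chain. Psmb8 (ENSMUSG00000024338), Psmb9 (ENSMUSG00000096727) and Psmb10 (ENSMUSG00000031897) are the catalytic subunits of the immunoproteasome, in which they take the places of Psmb5, Psmb6 and Psmb7, and change which peptides are cut. Nlrc5 (ENSMUSG00000074151) is the transactivator that drives transcription of most of the others. Interferons are the best known inducers of the whole set, and carcinomas often express it weakly.

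The sequences before the start sites of 4 members are shown because the spelling and order of short motifs differ between the heavy chain genes, their light chain and the transporter gene. They were taken from RefSeq promoters on GRCm38.p6, which held entries for 8 of the 10 members, each searched over the 250 bases before the start. Capitals mark matches on either strand to GGGNNTTCC and GGGNNNTTC, which resemble κB sites, to GAANNGAAA and GAAANNGAA, which resemble interferon-stimulated response elements (ISRE), to TGACGC, found in the promoter module that Nlrc5 acts on, and to CCAAT. The second κB and ISRE spellings were added after the sequences were seen. H2-K1 lies at chr17:34000348-34000527 on the minus strand, H2-D1 at chr17:35262914-35263093, B2m at chr2:122147507-122147686 and Tap1 at chr17:34187331-34187555, the last 3 of them on the plus strand.
H2-K1: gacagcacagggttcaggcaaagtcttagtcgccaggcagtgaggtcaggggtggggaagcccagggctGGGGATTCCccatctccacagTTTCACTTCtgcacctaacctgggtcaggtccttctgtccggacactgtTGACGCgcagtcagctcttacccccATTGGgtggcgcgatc
H2-D1: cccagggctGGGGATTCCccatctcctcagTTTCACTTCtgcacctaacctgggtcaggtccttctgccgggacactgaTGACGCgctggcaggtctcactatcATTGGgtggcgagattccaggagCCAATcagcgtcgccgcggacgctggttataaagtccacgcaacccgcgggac
B2m: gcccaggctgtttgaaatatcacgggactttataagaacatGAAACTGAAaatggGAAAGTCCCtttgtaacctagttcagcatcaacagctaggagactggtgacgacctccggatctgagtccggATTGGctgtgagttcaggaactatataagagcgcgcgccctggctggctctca
Tap1: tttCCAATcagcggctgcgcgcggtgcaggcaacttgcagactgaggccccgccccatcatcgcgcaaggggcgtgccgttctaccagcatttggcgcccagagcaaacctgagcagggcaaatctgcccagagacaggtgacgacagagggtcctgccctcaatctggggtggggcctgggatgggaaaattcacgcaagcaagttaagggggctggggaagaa
H2-K1 and H2-D1 held GGGNNTTCC, GAANNGAAA on the reverse strand, TGACGC and CCAAT on the reverse strand, in this order. The printed H2-D1 stretch held a further CCAAT on the forward strand. B2m held the second spellings, GAAANNGAA followed by GGGNNNTTC on the reverse strand, and CCAAT. As those spellings were added after the sequences were seen, the B2m matches to them are no independent finding. No second spelling was tried for TGACGC. Tap1, Psmb9 and Tapbp matched CCAAT alone, and Psmb8 and Psmb10 matched none of these spellings. Over all 32817 RefSeq promoters of the same length, 4.97% held GGGNNTTCC, 11.8% GGGNNNTTC, 6.31% GAANNGAAA, 7.12% GAAANNGAA, 6.11% TGACGC and 33.8% CCAAT. Tap1 and Psmb9 start 226 bases apart on opposite strands, so the 225 bases shown for Tap1 also precede Psmb9. A match describes these letters only, and binding was not measured.

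The 4 libraries, given in the order untreated, STING agonist, LTβR agonist and combination wherever 4 values stand together, kept 7516, 13441, 13225 and 14666 cells. The deposited matrices held 52109958 to 85855398 UMIs each, and the combination library was the shallowest per cell. Classes were set by marker genes, and each class name stands for cells that look like that type. Unnamed clusters held 13.7, 9.67 and 10.3% of cells in the first 3 libraries and slightly more in the combination. Classes with at least 50 cells in every library were macrophages and monocytes, dendritic cells, neutrophils, T cells, NK cells, plasma cells and carcinoma-like cells. Pairs of libraries shared 34 to 83 cell barcodes, at most 0.539% of a library. Levels are given in CPM, the UMIs of a gene per 1000000 UMIs of the class and library, with exact Poisson 95% intervals, and ratios between libraries as log2 with exact 95% intervals. Because each UMI is 1 molecule, levels of different genes were compared without a length correction. All intervals cover counting error alone, and variation between mice was not measured. Reads of H2-K1 and H2-D1 can be shared with other class I genes of near-identical sequence, so their levels carry that uncertainty.

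B2m was the most abundant member in each of these 7 classes, and the heavy chains followed. Over the 4 libraries, B2m was highest in macrophages and monocytes, at 5062 to 5716 CPM, and lowest in neutrophils, at 2362 to 2992. H2-K1 ordered the classes differently. T cells held 2164 to 2470 and NK cells 2161 to 2280 CPM of H2-K1, and their ranges over libraries overlapped. Macrophages and monocytes followed at 1666 to 1731, dendritic cells at 1398 to 1611 and carcinoma-like cells at 1071 to 1835, and the ranges of the last pair overlapped. Plasma cells held 896 to 1016 and neutrophils 640 to 929. H2-D1 was flatter across classes, with overlapping ranges between all neighbours from macrophages (1704 to 1884) down to carcinoma-like cells (1246 to 1823). Only plasma cells stood below, at 642 to 707 CPM.

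Dendritic cells, the main cross-presenting cells, led most of the peptide supply genes. Psmb8 was at 618 to 780 CPM in dendritic cells, above 390 to 445 in macrophages and monocytes, and Psmb9 at 381 to 530 against 212 to 256. Tap1 was at 258 to 313 in dendritic cells against 170 to 205 in macrophages, and Tap2 at 161 to 184 against 120 to 142 in T cells, the next class. None of these 4 ranges overlapped with that of the next class. Tapbp and Psmb10 were shared between macrophages (296 to 336 and 161 to 186) and dendritic cells (281 to 315 and 150 to 166), whose ranges overlapped. Nlrc5 was at 318 to 379 CPM in T cells and 272 to 357 in NK cells, against 187 to 238 in dendritic cells, 102 to 138 in macrophages and monocytes and 60.0 to 107 in plasma cells. The NK level was uneven, at 735, 615, 550 and 718 CPM in a cluster with 0.487 to 0.792% of UMIs from ribosomal protein genes and 223, 171, 202 and 174 in the larger NK cluster, which was not above dendritic cells. Carcinoma-like cells held the lowest Tap2 geometric mean, 48.0 CPM, with a range of 27.2 to 91.2 that overlapped that of plasma cells (41.3 to 63.3).

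**Figure D1:**
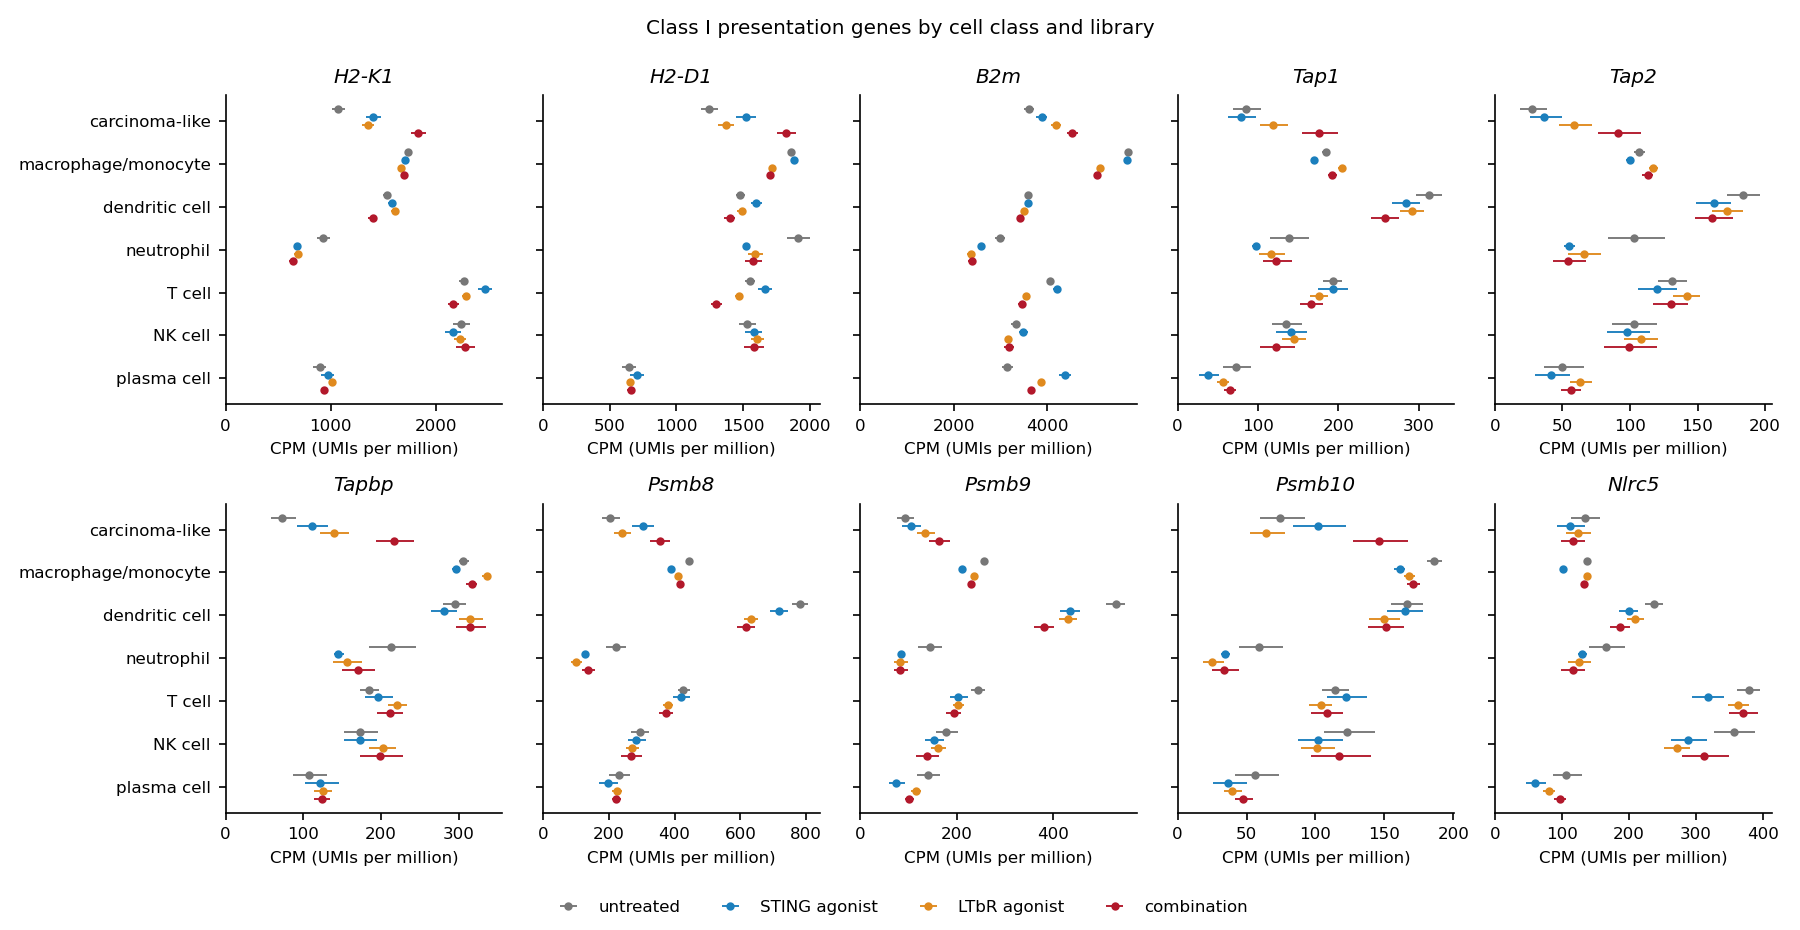
Levels of the 10 genes in CPM (x axes, linear from 0) by cell class (y axes), with 1 point per library and exact Poisson 95% intervals of counting error. The carcinoma-like points run from 27.2 to 91.2 for Tap2 and from 72.8 to 217 for Tapbp, and dendritic cells lie to the right for Psmb8, Psmb9, Tap1 and Tap2.

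Finer cell types split the dendritic cells. The cDC1 cells, specialised in presenting taken-up antigen to CD8 T cells, held Psmb9 at 902, 810, 750 and 746 CPM and Tap1 at 429, 413, 436 and 420. In cDC2 cells Psmb9 was at 368, 375, 343 and 291 and Tap1 at 259, 264, 259 and 215, below cDC1 in every library. The cDC1 cells nevertheless held the least H2-K1 of the dendritic types, 1051, 1028, 1086 and 1046, while mature dendritic cells, which have moved to an antigen-presenting state, held 2093, 2001, 2034 and 1827. Psmb8 in monocytes was 537, 491, 485 and 493. Among T cells, CD4 cells held H2-K1 at 2967, 2819, 2546 and 2489 and CD8 cells at 2183, 2424, 2157 and 2161. Cell numbers behind these types ranged from 53 cDC1 cells in the STING agonist library to 3189 monocytes in the combination library.

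Carcinoma-like cells were 128, 177, 177 and 221 cells that passed a CD45+ sort. They were checked first against their markers. The keratins Krt8 (453, 346, 401 and 448 CPM), Krt18 and Krt19 were high against at most 1.26 in leukocytes, as were Msln and Tspan8. The chromatin factor Hmga2 stood at 2503 to 3287 in these cells and 2.21 in leukocytes. Epithelial junction genes were nearly absent, with 2 UMIs of Epcam, 7 of Cdh1 and 0 of Cldn4 and Cldn7 over all libraries, and Epcam and Cdh1 were higher in leukocytes. Krt7, also a keratin, held 2 UMIs. The mesenchymal gene Vim was at 3889 to 4591 CPM. Of the 8 fibroblast markers, Col3a1 (57.6 to 125) and Bgn (0 to 41.4) were the ones above 10.1 CPM in any library. Of the 8 endothelial markers, Cdh5, Kdr, Cldn5 and Emcn were at 0 in all libraries. Pecam1 was at 7.72 to 21.9 CPM, against 54.0 in leukocytes, and Plvap at 0.877 to 6.31. Tek and Egfl7 reached 0.915 and 0.702. The name carcinoma-like therefore rests on Krt8, Krt18, Krt19, Msln, Tspan8 and Hmga2, not on epithelial junction genes.

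The main comparison asked whether the agonists went with more RNA of the class I presentation genes in the carcinoma-like cells. Class I protein at the surface was not measured here. In the combination library most members were higher than in untreated tumours, with Tap2, Tapbp and Tap1 furthest apart among cells of up to 5000 genes. Tapbp was at 72.8, 111, 139 and 217 CPM, 2.97-fold higher in the combination (log2 ratio 1.57, interval 1.22 to 1.94). Tap1 was at 85.0, 78.7, 119 and 176, 2.06-fold higher (1.05, 0.71 to 1.40). Tap2 was at 27.2, 36.6, 58.5 and 91.2, 3.32-fold higher (1.73, 1.17 to 2.36). For these 3 genes the interval of the combination library lay above those of all other libraries. How many of all genes measured had such intervals is not given.

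Among the immunoproteasome subunits, Psmb10 was at 74.5, 102, 64.2 and 146 CPM, 1.95-fold higher in the combination (log2 ratio 0.96, interval 0.60 to 1.35). Psmb8 was at 205, 303, 241 and 355 (0.79, 0.56 to 1.02). Psmb9 was at 92.9, 106, 135 and 163 (0.81, 0.48 to 1.16), but this direction depended on weighting, since the log2 ratio was -0.05 when each cell counted alike. The combination was the highest library for all 3 subunits, although its Psmb8 interval overlapped that of the STING agonist library and its Psmb9 interval that of the LTβR agonist library.

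Of the heavy chains, H2-K1 differed about as much as Psmb8, and H2-D1 and B2m differed less. H2-K1 was at 1071, 1406, 1355 and 1835 CPM, 1.71-fold higher in the combination (log2 ratio 0.78, interval 0.68 to 0.88). H2-D1 was at 1246, 1520, 1372 and 1823, 1.46-fold higher (0.55, 0.46 to 0.64). B2m was at 3606, 3879, 4186 and 4539, 1.26-fold higher (0.33, 0.28 to 0.39). Nlrc5, the transactivator of the set, stood apart at 134, 112, 124 and 116, with a combination ratio of -0.21 (-0.54 to 0.11) and overlapping intervals in all 4 libraries.

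A gene was called where it differed at least 1.5-fold with at least 200 UMIs over the 2 libraries. For the combination against untreated, 6 of the 9 members that reached 200 UMIs were called higher (H2-K1, Tap1, Tapbp, Psmb8, Psmb9 and Psmb10), against 8.26% of the 2675 genes measured. No member was called lower. Tap2, with 161 UMIs in the 2 libraries together, was not counted. The median log2 ratio of the measured members was 0.79, whereas that of all genes measured was -0.01. With either agonist alone 1 member, Tapbp, was called, 1 of 7 with the STING agonist (background 7.74%; log2 ratio 0.60, interval 0.19 to 1.03) and 1 of 8 with the LTβR agonist (background 4.08%; 0.93, 0.57 to 1.32). The STING agonist value for Tapbp turned to -0.29 with each cell weighted alike and to -0.90 after cells were thinned to 1000 UMIs. The median over members was 0.29 for each agonist alone.

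The combination was also set against each agonist. Against the STING agonist, 3 of 9 members were called higher (Tap1 1.16, Tapbp 0.97 and Psmb9 0.62 on the log2 scale), with a background of 9.67%. Against the LTβR agonist, 3 of 10 were called higher (Psmb10 1.18, Tap2 0.64 and Tapbp 0.64), with a background of 3.10%. Tap1, Tap2 and Tapbp stayed above 0 against both agonists under all 13 alternative settings. The heavy chain H2-D1 stayed above 0 in 8 of 13 against the STING agonist, and Psmb8 in 7 of 13.

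These differences depended on the upper limit of 5000 genes per cell. Of the cells in keratin-marked clusters without that limit, 46.4, 33.9, 28.1 and 7.63% held more than 5000 genes, so the limit removed far more of the untreated cells than of the combination cells. Median UMIs per cell were 18666, 11687, 12412 and 6372 without it and 8842, 2857, 8636 and 5630 with it. Without the limit, and with the unnamed keratin clusters included, there were 250, 289, 260 and 262 cells, and the untreated levels were closer to the others. Tapbp was then at 135, 156, 161 and 212 CPM, Tap1 at 108, 116, 128 and 179, and Tap2 at 47.5, 61.1, 63.5 and 88.3. These 3 genes were the members called for the combination against untreated, at log2 ratios of 0.65, 0.73 and 0.90, with intervals of the level that did not overlap. For this set of cells the shares of all genes called, or with intervals apart, are not given.

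The other members fell short of 1.5-fold in that larger set of cells. H2-K1 was at 1369, 1690, 1517 and 1817 CPM (combination against untreated 0.41 on the log2 scale), H2-D1 at 1568, 1792, 1497 and 1789 (0.19) and B2m at 3966, 4397, 4249 and 4425 (0.16). Psmb8 was at 288, 377, 281 and 364 (0.34). For Psmb9 (150, 156, 150 and 165, ratio 0.14) and Psmb10 (129, 143, 90.9 and 135, ratio 0.07) the intervals of the untreated and combination levels overlapped. Nlrc5 was at 101, 95.8, 111 and 124 (0.30), also with overlapping intervals. The STING agonist library was then the highest for H2-D1, Psmb8 and Psmb10, with intervals that overlapped those of the combination. Over the 13 alternative settings, Tap1 (0.73 to 1.15), Tap2 (0.64 to 2.81) and Tapbp (0.64 to 1.77) kept a combination ratio of at least 1.5-fold in each, and H2-K1, Psmb8, Psmb9 and Psmb10 in 9, 9, 8 and 9 of 13.

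**Figure D2:**
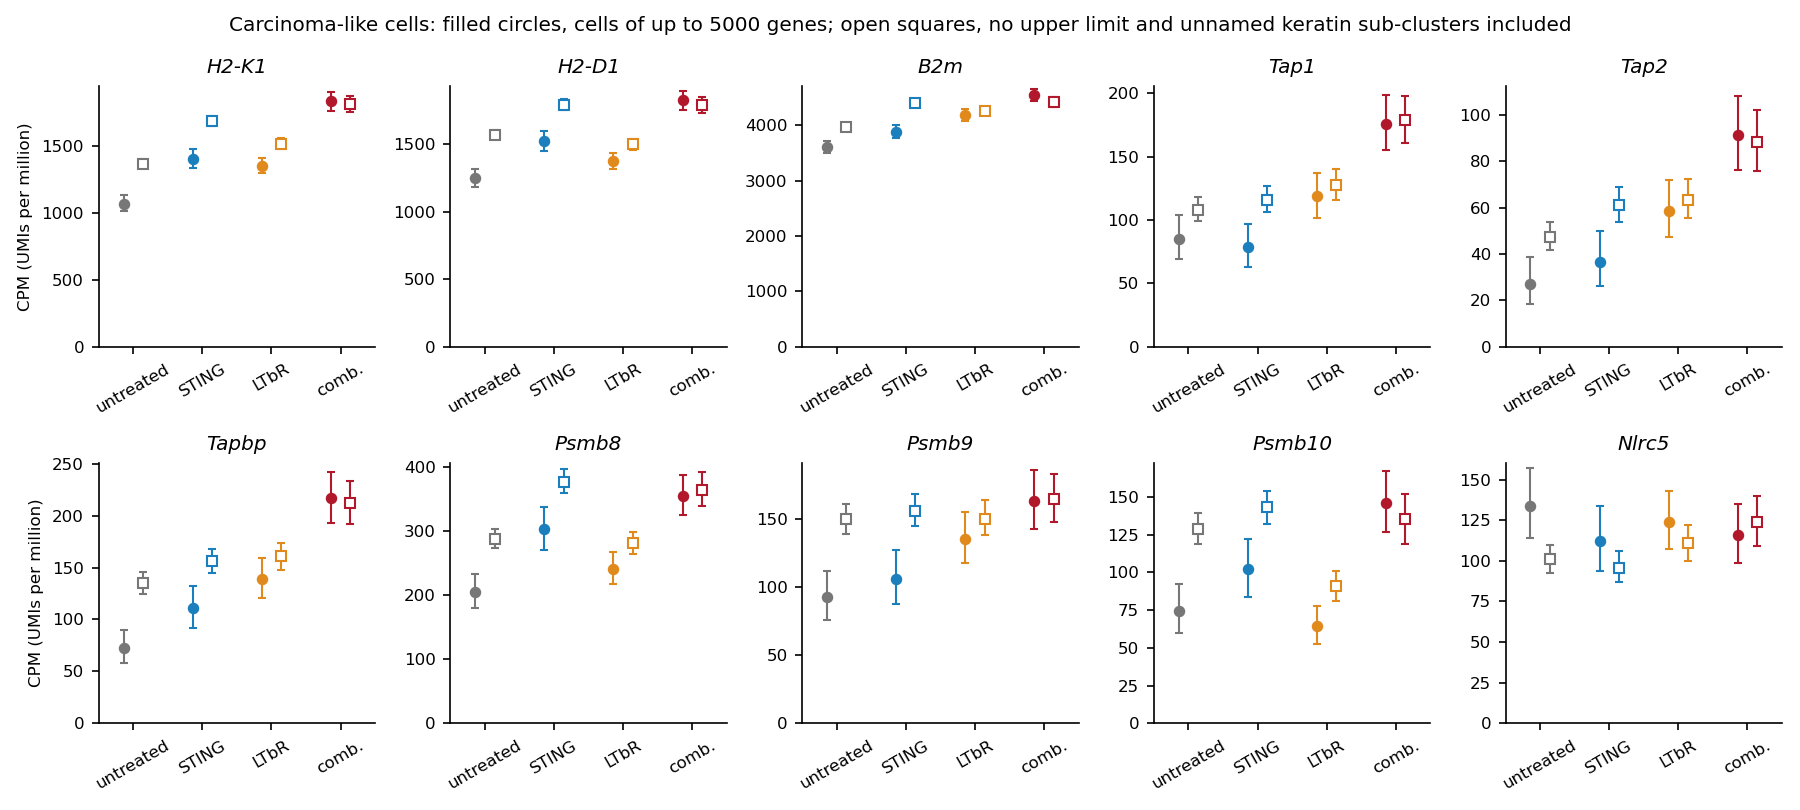
Levels of the 10 genes in carcinoma-like cells, in CPM (y axes, from 0), by library (x axes), with exact Poisson 95% intervals of counting error. Filled circles are cells of up to 5000 genes and open squares cells without that limit, unnamed keratin sub-clusters included. The untreated squares lie above the circles for every gene but Nlrc5, and Tap1, Tap2 and Tapbp are highest in the combination in both.

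The carcinoma-like cells were a mixture of sub-clusters with unlike member levels. A sub-cluster led by Lingo2, Arhgap22 and Zfpm2, with 0.307 to 0.486% of UMIs from ribosomal protein genes, held H2-K1 at 227, 193, 344 and 404 CPM and 19, 49, 24 and 25 cells. Its Nlrc5, in contrast, was at 301, 207, 240 and 290, above the level of the whole class in every library. A sub-cluster led by Ccn2, Cxcl10 and Syt8 held the highest heavy chain levels among sub-clusters with at least 40 cells in a library, with H2-K1 at 1968 in 40 LTβR agonist cells and 2195 in 83 combination cells. Its Tapbp was at 252 and 272. It held 8, 14, 40 and 83 carcinoma-like cells, so the class ratios compare different mixtures of sub-clusters, and it is not among those compared within sub-clusters because of its few untreated cells. In the 5 sub-clusters with cells to compare, the combination exceeded untreated in 5 for H2-K1 and H2-D1 and in 4 for B2m, each from at least 31 UMIs a library. The other members rest on as few as 0 to 2 UMIs in some sub-clusters and are not counted.

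Cells low in ribosomal protein UMIs, under 25% of their class median, were 13.3, 28.8, 13.6 and 12.7% of the carcinoma-like cells. Without them, the combination ratios were 0.65 for H2-K1, 1.07 for Tap1, 1.40 for Tapbp, 0.66 for Psmb8, 0.65 for Psmb9 and 0.85 for Psmb10, all 6 at least 1.5-fold. No share of all genes called is given for this subset. Among the STING agonist cells, where such cells were most frequent, H2-K1 and Psmb8 then stood 0.67 and 0.86 above untreated. The median share of ribosomal protein UMIs over all carcinoma-like cells was 15.7, 13.1, 12.5 and 10.7%, lowest in the combination. It was also lower in the combination than in untreated tumours in 4 of the 5 sub-clusters compared, at 14.5 against 12.9, 22.1 against 14.9, 16.6 against 10.9 and 25.1 against 15.7% with the untreated value first. The part of RNA quality in these differences was not tested.

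Leukocyte RNA in the carcinoma-like cells was measured because the cells had come through a CD45 gate. Ptprc, the gene of CD45, was at 23.7, 13.7, 13.4 and 38.6 CPM, which is 2.24, 1.35, 1.07 and 3.54% of its level in macrophages and monocytes, and 7.03 to 10.4% of the cells held a Ptprc UMI. The summed level of the 8 C1q macrophage markers ranged from 37.5 to 77.9 over libraries, that of the 8 T cell markers from 1.27 to 9.12 that of the 8 NK cell markers from 0.915 to 21.7 and that of the 8 neutrophil markers from 7.01 to 60.4. The monocyte (6884 to 10158) and Arg1 macrophage (10561 to 18136) lists were far higher in these cells. The plasma cell (401 to 899), plasmacytoid dendritic cell (515 to 679), cDC1 (322 to 434) and mature dendritic cell (222 to 327) lists lay between. Whether the RNA behind these higher sums came from leukocytes was not tested. Ptprc and the C1q macrophage, T cell, NK cell, monocyte, Arg1 macrophage, plasma cell and mature dendritic cell sums were highest in the combination library. The neutrophil and cDC1 sums were highest in the STING agonist library, and the plasmacytoid dendritic cell sum in the LTβR agonist library. Macrophage RNA at the Ptprc share would account for 1.31 to 3.95% of the H2-K1, H2-D1 and B2m levels and at most 9.43% of any member's level, that of Tapbp in untreated cells. In the cells without a Ptprc UMI, the combination ratios were 0.72 for H2-K1, 1.08 for Tap1, 1.49 for Tapbp and 0.89 for Psmb10, and 6 members were again called higher. No share of all genes called is given for these cells.

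Detection per cell was compared after each cell was thinned to 1000 UMIs, which left 103, 137, 163 and 201 carcinoma-like cells and dropped 25, 40, 14 and 20. An H2-K1 UMI was found in 50.5, 51.8, 59.5 and 79.1% of them, with an exact Clopper-Pearson interval of 72.8 to 84.5% in the combination and 40.5 to 60.5% in untreated cells. The unthinned shares were 81.2, 66.1, 88.1 and 91.4%. H2-D1 was found in 60.2, 59.1, 63.8 and 78.1% of thinned cells. For the sparser genes the thinned intervals of the combination and untreated cells overlapped, with Tap1 in 8.74, 7.30, 12.9 and 16.4%, Tapbp in 9.71% of untreated and 16.4% of combination cells, and Nlrc5 in 10.7, 9.49, 10.4 and 9.45%. A median thinned cell held 6, 6, 7 and 8 UMIs of the 10 members together, and 8.74, 10.9, 6.75 and 2.49% of cells held none. In macrophages and monocytes 0.449 to 0.719% of thinned cells held none.

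Each immunoproteasome subunit was compared with the constitutive subunit it replaces, as a ratio of UMIs that does not depend on the total of the library. In carcinoma-like cells of up to 5000 genes Psmb10/Psmb7 was 0.584, 0.799, 0.527 and 1.07, and the log2 difference between the combination and untreated was 0.88 (95% counting interval 0.40 to 1.35). Psmb9/Psmb6 was 0.906, 1.10, 1.08 and 1.37, with a difference of 0.60 (0.12 to 1.07). Psmb8/Psmb5 was 1.93, 3.14, 2.11 and 2.42, where the interval of the combination difference included 0 (0.32, -0.07 to 0.72) and that of the STING agonist did not (0.70, 0.26 to 1.15). Psmb5 itself was 0.46 higher in the combination than in untreated cells on the log2 scale. Without the gene limit, and with the unnamed keratin clusters, the combination differences for Psmb10/Psmb7 and Psmb9/Psmb6 were smaller and their intervals included 0. Psmb10/Psmb7 was then 0.898, 1.06, 0.694 and 0.962, with a combination difference of 0.10 (-0.18 to 0.38). It stood apart from untreated by 0.24 (0.01 to 0.46) with the STING agonist and by -0.37 (-0.63 to -0.12) with the LTβR agonist. Psmb9/Psmb6 was 1.05, 1.13, 1.02 and 1.25, with a combination difference of 0.25 (-0.02 to 0.53). Psmb8/Psmb5 was 1.89, 2.50, 1.99 and 2.39, above untreated by 0.41 (0.23 to 0.59) with the STING agonist and by 0.34 (0.11 to 0.57) with the combination.

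Among leukocytes, Psmb8/Psmb5 was 5.65, 5.07, 4.92 and 4.40 in dendritic cells, 3.72, 3.09, 3.09 and 3.24 in macrophages and monocytes, and 4.03, 4.57, 3.74 and 3.53 in T cells. NK cells (2.55 to 2.93) and plasma cells (2.19 to 2.61) lay within the range of the carcinoma-like cells of up to 5000 genes. The STING agonist value of those cells, 3.14, was above that of macrophages in the same library. Without that limit the carcinoma-like range was 1.89 to 2.50, below NK cells, and the STING agonist value of 2.50 was below that of macrophages. Psmb9/Psmb6 was 3.46, 2.88, 3.18 and 2.74 in dendritic cells and 1.39 to 1.58 in macrophages. In plasma cells Psmb9/Psmb6 was 2.16, 0.739, 1.19 and 1.08, so the untreated library stood above the treated ones. That untreated value rests on 130 UMIs of Psmb9 in 105 cells.

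**Figure D3:**
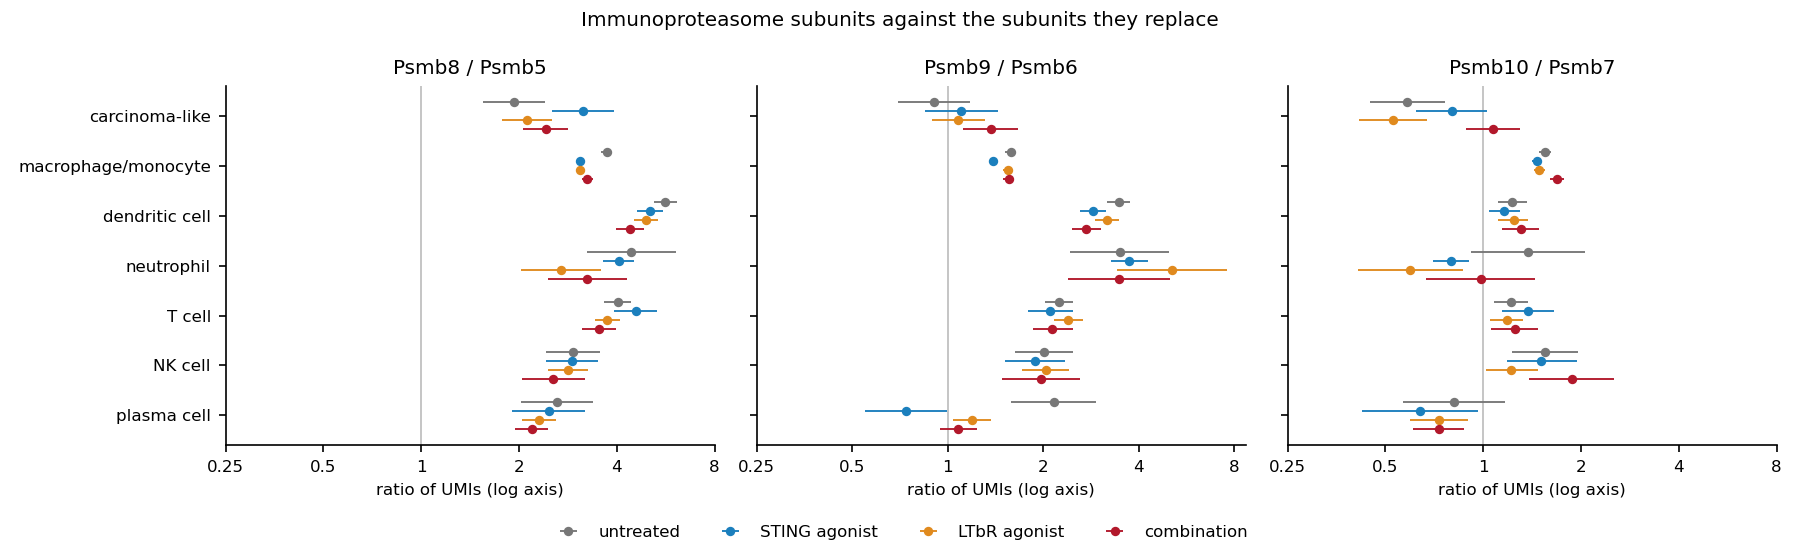
Ratio of immunoproteasome to constitutive subunit UMIs (x axes, log scale, vertical line at 1) by cell class (y axes), with 1 point per library and 95% counting intervals. Among carcinoma-like cells, plotted up to 5000 genes, Psmb10/Psmb7 is 0.584 in untreated and 1.07 in combination cells (0.898 and 0.962 without that limit), and dendritic cells hold the highest Psmb8/Psmb5 ratios, 4.40 to 5.65.

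The balance of the heavy chains also differed by class. H2-K1/H2-D1 was 1.46, 1.48, 1.56 and 1.67 in T cells and 1.37 to 1.46 in NK cells, so lymphocytes held more H2-K1 than H2-D1. In neutrophils it was 0.486, 0.449, 0.432 and 0.406, the reverse. Macrophages and monocytes were near equality at 0.905 to 0.995. Carcinoma-like cells were at 0.860, 0.925, 0.987 and 1.01, and the untreated interval (0.797 to 0.928) lay below that of the combination (0.953 to 1.06). As reads can be shared between class I genes, this balance is as counted by the authors' pipeline.

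In most leukocyte classes no member was called against untreated. In macrophages and monocytes 0 of 10 were called with the STING agonist, the LTβR agonist or the combination, where 15.3, 6.22 and 6.01% of all genes were called in either direction. Their member ratios ran from -0.43 (Nlrc5, STING agonist, 137 against 102 CPM) to 0.15, and the median of all genes was itself shifted by -0.20 in the STING agonist comparison. In dendritic cells 0 of 10 were called (background 7.32, 4.43 and 8.08%), with Psmb9 the lowest in the combination, at 530, 435, 431 and 381 CPM (-0.48). The cDC1 cells, whose Psmb9 was the highest, were 19.6, 10.7, 11.6 and 12.7% of the dendritic cells, so these levels compare different mixtures. In the combination, Psmb9 was 746 against 902 CPM in untreated tumours in cDC1, 291 against 368 in cDC2 and 347 against 483 in mature dendritic cells. In plasmacytoid dendritic cells it was 289 against 250, from 27 combination cells. With the STING agonist, Psmb9 was 375 against 368 in cDC2 cells and below untreated in the other dendritic types. T cells (background 7.01, 6.19 and 5.97%) and NK cells (4.08, 2.37 and 4.03%) also had 0 of 10 called in each comparison, with ratios from -0.39 to 0.26. Psmb9 was lower than in untreated cells in all 3 treated libraries of each of these 4 classes, by 0.11 to 0.48 on the log2 scale. The macrophage and monocyte libraries held their 9 clusters in different proportions, and the mean Psmb9 ratio within clusters was -0.12, 0.06 and -0.02. No replicate bears on values of this size.

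Plasma cells gave 1 call. Psmb9 was at 140, 74.8, 115 and 102 CPM, called lower with the STING agonist (-0.90, -1.33 to -0.49) as 1 of 6 members measured, where 28.8% of all genes were called in either direction. Neither the LTβR agonist (background 12.2%) nor the combination (10.2%) gave a call among 10 members. The STING agonist library held 66 plasma cells.

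**Figure D4:**
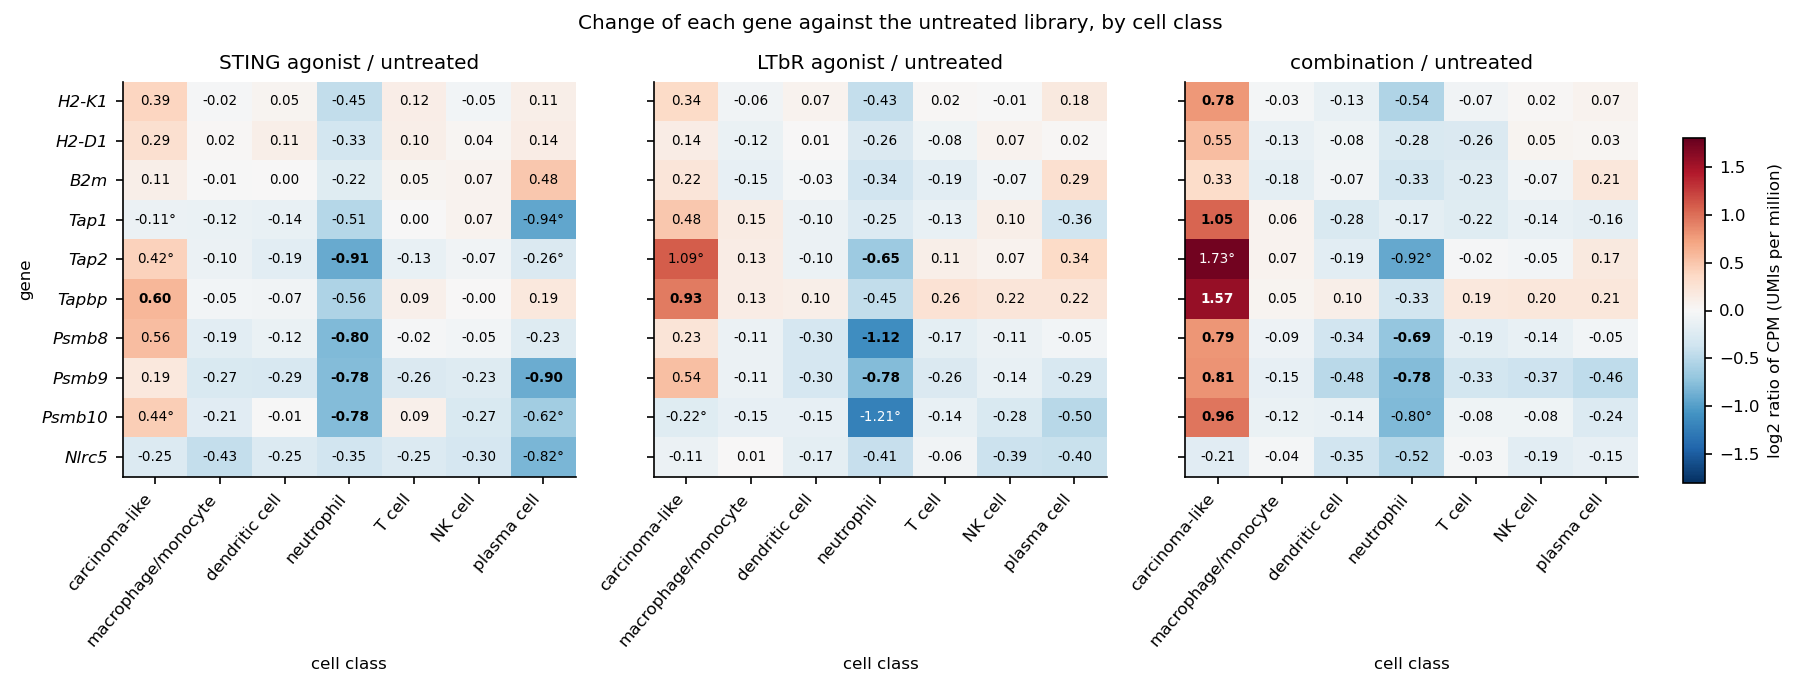
Log2 ratio of CPM against the untreated library for the 10 genes (rows) in 7 cell classes (columns), 1 panel per treatment, with red for higher and blue for lower. Bold marks ratios of at least 1.5-fold with at least 200 UMIs, and a degree sign marks genes under 200 UMIs. The carcinoma-like column is mostly red in the combination panel, although Psmb9 there turns to -0.05 with each cell weighted alike, and the neutrophil column is blue in all 3 panels.

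Neutrophils held most of the calls of lower members among leukocytes. All members measured were below untreated in all 3 comparisons, where 31.2, 43.7 and 43.7% of all genes measured were above it. The immunoproteasome genes and Tap2 differed most. Psmb8 was at 221, 127, 101 and 137 CPM, Psmb9 at 144, 83.7, 83.5 and 83.5, and Psmb10 at 59.0, 34.7, 25.3 and 33.8. Tap2 was at 103, 55.0, 65.7 and 54.4. H2-K1 (929, 681, 688 and 640) and H2-D1 (1914, 1519, 1593 and 1577) were lower too but under 1.5-fold. The untreated interval of Psmb8 and of Psmb9 lay above those of the 3 treated libraries. How many of all genes had such intervals is not given.

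Called lower were 4 of 10 with the STING agonist (Tap2 -0.91, Psmb8 -0.80, Psmb9 -0.78 and Psmb10 -0.78), where 23.0% of all genes were called lower and the median of all genes was shifted by -0.25. With the LTβR agonist 3 of 9 were called lower (Tap2 -0.65, Psmb8 -1.12 and Psmb9 -0.78, background 7.87%), and with the combination 2 of 8 (Psmb8 -0.69 and Psmb9 -0.78, background 4.86%). With ratios centred on the median of all genes, 2 calls in place of 5 were made over all leukocyte classes with the STING agonist. The median member ratio was -0.53, -0.43 and -0.42. When doublets were kept, none was called lower with the LTβR agonist or the combination.

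The neutrophils formed a pair of clusters that differed in these genes, and treated libraries held them in other proportions. One was led by Ankrd33b and Hcar2 and made up 40.0, 66.2, 53.5 and 46.1% of the class, and the other was led by Ngp and Cxcr2, a granule protein and a chemokine receptor of circulating neutrophils. In the Ngp cluster Psmb8 was at 302, 226, 136 and 166 CPM, Psmb9 at 201, 130, 107 and 108 and Tap2 at 138, 104, 89.3 and 70.6, all lower in each treated library. In the Ankrd33b cluster Psmb8 was at 70.6, 67.1, 63.9 and 98.6 and Psmb9 at 36.8, 55.8, 57.9 and 51.6, not lower in the combination. The untreated values there rest on 23 and 12 UMIs. H2-K1 in the Ngp cluster was 1120, 869, 714 and 722, against 574, 568, 660 and 534 in the Ankrd33b cluster.

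**Figure D5:**
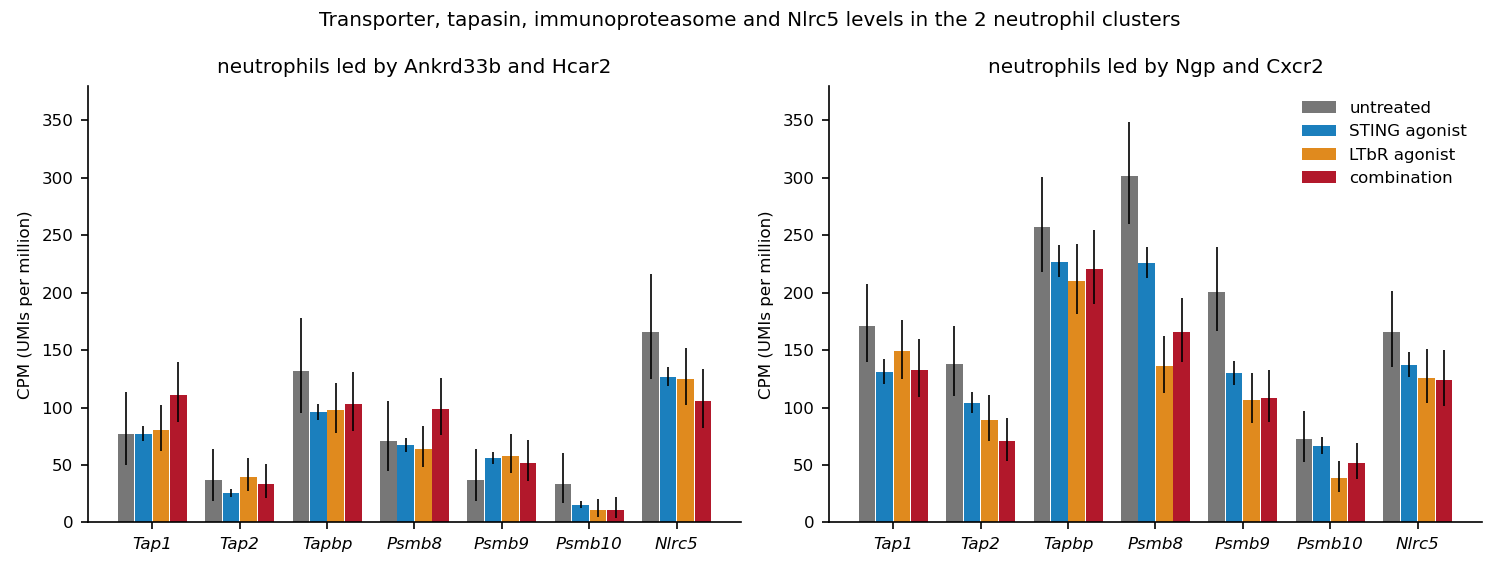
Levels of Tap1, Tap2, Tapbp, the immunoproteasome subunits and Nlrc5 in CPM (y axes, from 0) in the 2 neutrophil clusters (left and right panels), with 1 bar per library and exact Poisson 95% intervals. Psmb8 is at 302 in untreated cells of the Ngp and Cxcr2 cluster and at 136 to 226 in its treated libraries, and stays under 100 in the other cluster.

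A pair of the 9 macrophage and monocyte clusters shows how far apart clusters could lie. Psmb8 was at 602, 535, 559 and 556 CPM in monocytes led by the interferon-induced genes Ly6i, Cxcl10 and Ifit2, and at 258, 222, 252 and 243 in macrophages led by Mmp12. Tap1 was at 262, 225, 293 and 259 in the former and at 131, 119, 140 and 139 in the latter. Within either cluster no library stood 1.5-fold from untreated for these genes, but in others some did. Over the 9 clusters the Tap1 log2 ratio ran from -0.78 (STING agonist, 64.5 CPM against 110 in untreated cells, in a cluster led by Pf4) to 0.84 (combination, 211 CPM against 116 in untreated cells, in a cluster led by Clec1a with 20 untreated cells).

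Other genes around class I presentation were counted from fixed lists in the carcinoma-like cells. Among nonclassical class I genes 3 of the 5 measured were called higher in the combination against untreated, H2-Q6 (81.5, 102, 126 and 189 CPM), H2-Q7 (281, 295, 319 and 453) and H2-T22 (124, 115, 135 and 200). Of the peptide loading chaperones Calr, Pdia3 and Canx, none was called (0 of 3, with log2 ratios of 0.13, 0.09 and -0.04). Of the other proteasome genes 1 of 6 was called higher, Psme1, a subunit of the PA28 activator (217, 262, 259 and 332), while its partner Psme2 stood 0.49 higher. These counts stand beside the same 8.26% of all genes, and 0 of 8 housekeeping genes were called.

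Several interferon-induced genes were also higher in the combination. Irf1, an interferon-induced transcription factor that binds ISRE-like sites, was at 133, 132, 172 and 227 CPM and was called higher in the combination, where 2 of the 5 measured regulators were. Of the interferon-γ list 4 of 6 were called higher, both beside 8.26% of all genes, and Cxcl10, a chemokine for T cells, was at 11.4, 20.1, 104 and 208. Cxcl9 was at 1.75, 23.8, 65.5 and 229, a log2 ratio of 6.71 (5.17 to 10.08) that rests on 2 untreated UMIs. Isg15, of the type I interferon list, was at 118, 150, 146 and 265, as 1 of 2 measured. The sub-cluster led by Ccn2 and Cxcl10 was defined in part by Cxcl10, and its part in these differences was not tested.

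Class II genes, which carcinoma cells need not express, were called higher in 4 of 4 with the STING agonist and with the combination, where 7.74 and 8.26% of all genes were. In the combination, class II genes were also called higher in T cells (5 of 5, where 2.75% of all genes were), NK cells (3 of 3, 2.90%), neutrophils (4 of 4, 3.60%) and plasma cells (4 of 5, 7.01%). Cd74, the class II invariant chain, was at 348, 677, 441 and 1038 CPM. Macrophage RNA at the Ptprc share would give 89.3, 23.3, 31.9 and 58.5% of those levels, against at most 9.43% for a class I member. The part of leukocyte RNA in the class II differences was not tested further.

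The genes whose levels ran most like the members were sought over 53 profiles, each a cell type in a library with at least 50 cells, among 10431 genes. The closest were Psme1 (Pearson r = 0.92), Phf11b (0.90) and Psme2 (0.89), followed by Slc25a11, Taf10 and Bloc1s1 at 0.88 to 0.89. After the mean of each cell type was subtracted, H2-T23 (0.81), Psme1 (0.77) and H2-Q7 (0.75) came first. The same measure for each member against the other members, after that subtraction, was 0.86 for H2-K1 and 0.79 for Psmb9 but 0.42 for B2m and 0.12 for Nlrc5. The profiles share 4 libraries and their depths, so these values are descriptions.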

How the data were processed

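Live CD45+ cells of 4 pooled tumour groups were profiled by droplet 5′ single-cell RNA sequencing. The authors deposited filtered UMI count matrices, whole numbers per gene and cell, aligned to mm10. The submitters' processing notes give Cell Ranger 7.1.0, whereas the file headers give 8.0.1, and the labels and the study's methods name different kit versions. A first experiment was not analysed here.

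The deposited counts held 8730, 15404, 14634 and 16322 cells, with medians of 4712, 3187, 3730.5 and 2157.5 UMIs. Cells with 300 to 5000 genes and at most 6% mitochondrial UMIs were used. The highest Scrublet scores, 0.4% per 1000 cells, were removed as doublets (305, 949, 857 and 1066), because the automatic threshold marked 0, 0, 1 and 0. Cells were clustered with scanpy 1.11.5 and leidenalg 0.10.2 (2000 variable genes without the members and nonclassical class I genes, 30 components, 20 neighbours, resolution 1), giving 35 clusters. Clusters were named from marker lists, with a score of at least 0.9, a margin of 0.4 and 3 supported markers. These naming thresholds were set after the clusters were seen, and 1 keratin sub-cluster led by Prl2c3 and Hilpda was named by an exception made after its genes were seen. Some items are not reported here.

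Counts were summed per class and library. Log2 ratios had 0.5 UMI added, and a gene was called at 1.5-fold with at least 200 UMIs over both libraries. Intervals are exact Poisson for levels, exact binomial for ratios between libraries and for shares, and log-normal for ratios of subunits, all at 95%. They cover counting error only. Classes with fewer than 50 cells in a library entered no comparison. The script was tested on simulated data. All members are named, and from other lists at most 3 genes per comparison by size among those with 200 UMIs. The members and lists were chosen with earlier results of these data known.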

Additional observations from a re-analysis of the deposited data

Results flagged for a closer look

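For the combination against untreated tumours, carcinoma-like cells and neutrophils differed in opposite directions for a pair of immunoproteasome subunits. The log2 ratio of Psmb8 was 0.79 in carcinoma-like cells and -0.69 in neutrophils, 1.48 apart. That of Psmb9 was 0.81 and -0.78, 1.59 apart. The carcinoma-like Psmb9 ratio was -0.05 with each cell weighted alike. Without the gene limit and with unnamed keratin sub-clusters, the carcinoma-like ratios were 0.34 for Psmb8 and 0.14 for Psmb9, neither called, and with no doublet removal the neutrophil ratios were -0.28 for Psmb8 and -0.30 for Psmb9, neither called. In the neutrophil cluster led by Ankrd33b both genes were higher in the combination than in untreated tumours, Psmb8 at 98.6 against 70.6 CPM and Psmb9 at 51.6 against 36.8, and the mean ratios within the neutrophil clusters were -0.20 and -0.22. With 1 library per group the difference was not tested.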

How the results depend on the processing

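In carcinoma-like cells the number of members called higher was 1 with the STING agonist, 1 with the LTβR agonist, 6 with the combination, 3 for the combination against the STING agonist and 3 against the LTβR agonist, in that order below. It was 0, 0, 3, 1 and 2 with no upper gene limit, 0, 0, 3, 0 and 2 with all cells over 500 UMIs, and 0, 0, 1, 0 and 1 after thinning to 1000 UMIs. With cells named without clusters it was 3, 2, 5, 1 and 1, at resolution 2 it was 0, 2, 6, 2 and 1, with no doublet removal 0, 0, 6, 3 and 4, with each cell weighted alike 1, 0, 5, 3 and 3, and with at least 20 UMIs 1, 2, 7, 4 and 3. In cells without a Ptprc UMI it was 0, 1, 6, 3 and 3. Further settings were chosen after seeing the data: without cells low in ribosomal protein UMIs it was 2, 1, 6, 1 and 3, with unnamed keratin sub-clusters 0, 1, 6, 3 and 3, with these and no upper gene limit 0, 0, 3, 1 and 0, and without the sub-cluster led by Prl2c3 0, 1, 7, 2 and 1. Fewer UMIs enter after thinning, and the cause of the other changes was not tested. The share of all genes called is given above for the main setting only. Under the other settings these counts therefore have no background beside them.

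Over the leukocyte classes, 5, 3 and 2 members were called lower with the STING agonist, the LTβR agonist and the combination, and 0 higher. The lower counts were 3, 0 and 1 with all cells over 500 UMIs, 5, 0 and 0 with no doublet removal, 5, 5 and 3 with cells named without clusters, 5, 1 and 2 after thinning, 2, 3 and 2 when centred on the median of all genes, and 8, 4 and 4 with at least 20 UMIs. With the STING agonist 1 member was called higher after thinning and 1 with each cell weighted alike, as was 1 with the LTβR agonist in the latter. Here too, the share of all genes called is not given for the alternative settings.

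The Tapbp log2 ratio in carcinoma-like cells with the STING agonist, 0.60, turned to -0.90 after thinning and -0.29 with each cell weighted alike, and that of Psmb9 with the combination, 0.81, to -0.05 with each cell weighted alike. No other called ratio of a member in carcinoma-like cells or neutrophils changed sign under these settings. Ratios of single genes in other classes and of other lists were not recomputed under them. No paired analysis was possible because each group was 1 library, and for the same reason no replicate could be left out. Carcinoma-like values rest on 128 to 221 cells, and Tap2 there on 31 to 130 UMIs per library.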

Other observations

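Classes too small for a comparison also held the members. Fibroblasts, with 20, 9, 14 and 10 cells, held H2-K1 at 817, 1262, 1743 and 1978 CPM and Tapbp at 230, 151, 369 and 420. B cells numbered 143 in the LTβR agonist and 209 in the combination library, where H2-K1 was at 1233 and 1216 and Tap1 at 126 and 150, but 7 and 8 in the other libraries. In a T cell cluster led by Il2ra, Ctla4 and Ikzf2, genes of regulatory T cells, H2-K1 was at 2966, 3066, 2683 and 2705.

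Over all leukocytes together, H2-K1 was at 1654, 1449, 1605 and 1506 CPM, Psmb8 at 440, 335, 381 and 368, and Psmb9 at 265, 187, 224 and 205. The classes behind these sums differed in number between libraries.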
